A study of Mus musculus with 2 samples.

Results

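The Ly6 and Ifitm genes encode 2 families of small surface proteins that many cell types switch on when they meet interferon. Ly6 proteins sit in the outer membrane leaflet on a glycosylphosphatidylinositol anchor. *Ly6a* encodes Sca-1, which is used to sort fibro-adipogenic progenitors (FAPs) and endothelial cells from muscle, and *Ly6c1* and *Ly6c2* together give the Ly6C antigen by which inflammatory monocytes are recognised. Ifitm proteins span the membrane and hinder the entry of enveloped viruses into cells. The 9 genes described are *Ly6a*, *Ly6c1*, *Ly6c2*, *Ly6e*, *Ly6i*, *Ifitm1*, *Ifitm2*, *Ifitm3* and *Ifitm6*, chosen by symbol, and all 9 were found among the 32285 genes of the count matrices.

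The cells came from the quadriceps of 14-week-old male wild-type (C57BL/6J) mice injured by BaCl2, a salt that lyses muscle fibres and leaves the muscle to regenerate. One library was made from day 1 quadriceps and 1 from day 3 quadriceps, each from a pool of 5 mice, so that differences among mice cannot be seen and no test between the days is possible. Cells had been frozen and sorted by light scatter before capture, and the unit counted was the unique molecular identifier (UMI). Cells were the 7367 barcodes of day 1 and the 6640 of day 3 with most UMIs that also had at least 1000 UMIs and 200 genes and at most 7.5% of UMIs from mitochondrial genes. That left 6735 cells of day 1, with a median of 9389 UMIs, and 4627 cells of day 3, with a median of 14548. No barcode was shared between the kept cells of both libraries. Levels are given as CPM, the UMIs of a gene scaled by the summed UMIs of a class of cells, with exact Poisson 95% intervals, and every interval covers counting error only. The matrix of day 1 listed 737280 barcodes and that of day 3 listed 6794880, so a difference in the barcode list and the day cannot be told apart.

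Clusters were named from marker genes that included no Ly6 or Ifitm gene, and the 9 members were left out of the genes used for clustering. Of the 14 clusters, 5 were macrophage-like, with 2404 cells on day 1 and 2401 on day 3, and each of the 10 macrophage markers was found in at least 10% of these cells on both days. Each macrophage-like cluster was almost wholly of 1 day. The *Serpinb2*-led and *Ppbp*-led clusters held 1217 and 1143 cells of day 1, against 1 and 15 of day 3, and the *Ifi213*-led, *Gpnmb*-led and *Rad51ap1*-led clusters held 1205, 707 and 473 cells of day 3, against 38, 3 and 3 of day 1. Every comparison of macrophage-like cells between days is therefore between different clusters. The same held for FAP-like cells (659 and 845 cells), of which the *Il1rl1*-led cluster held 634 on day 1 and the *Sfrp2*-led cluster held 838 on day 3. Monocyte-like cells numbered 1058 and 379, neutrophil-like cells 2078 and 251, and dendritic cell-like cells 442 and 477. The names did not rest on equal ground. Of the 10 macrophage markers, 3 were raised in the *Serpinb2*-led and 4 in the *Ppbp*-led cluster (a log2 ratio of at least 1 over all other cells), against 6 in the *Gpnmb*-led, 6 in the *Rad51ap1*-led and 8 in the *Ifi213*-led cluster. In dendritic cell-like cells 3 of 10 dendritic cell markers on day 1 and 6 on day 3 were found in at least 10% of the cells, and all 10 macrophage markers were as well. Myogenic-like cells numbered 5 on day 1 and 206 on day 3, and those of day 3 served only as a background class.

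The members lie in 2 blocks of the mouse genome (GRCm38, GENCODE vM21). The 5 Ly6 genes occupy 157 kb of chromosome 15, where *Ly6e* is at chr15:74955051-74959905, *Ly6i* at chr15:74979534-74983430, *Ly6a* at chr15:74994877-74998031, *Ly6c1* at chr15:75044018-75048830 and *Ly6c2* at chr15:75108158-75111970. The 4 Ifitm genes occupy 63.1 kb of chromosome 7, where *Ifitm2* is at chr7:140954837-140955987, *Ifitm1* at chr7:140967221-140969825, *Ifitm3* at chr7:141009586-141010770 and *Ifitm6* at chr7:141015699-141017924. All 9 are annotated as protein-coding, and all but *Ly6e* and *Ifitm1* are on the minus strand.

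Near-identical copies limit what a short read from the 3′ end of a transcript can tell. The coding sequences of *Ly6c1* and *Ly6c2* were identical at 384 of 393 bases (97.7%), those of *Ly6a* and *Ly6i* at 86.3%, and those of *Ly6a* and *Ly6e* at 64.6%. In the last 500 bases of the longest transcript, 27 of the 403 windows of 98 bases (the length of the cDNA read) were the same in *Ly6c1* and *Ly6c2*. For *Ifitm2*, 93 of 403 windows also occurred in the transcripts of *Gm11951*, *Gm45717* or *Gm8865*, so part of its reads may have had no unique place and its level may be too low. No window of the other 6 members was shared with another gene.

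The windows before the transcription start are shown for *Ly6c1* and *Ly6c2*, a near-identical pair that was found in different cells, and stretches are shown for the 3 Ifitm genes whose windows carry letters that interferon-activated factors are known to bind. RefSeq promoter windows (GRCm38.p6, 250 bases before to 50 after the start) were held for 6 of the 9 members. They were searched for the interferon-stimulated response element, read here as GAAA and GAAA with any 2 bases between them, or the reverse complement (TTTC and TTTC), and for the gamma-activated site TTCNNNGAA, which reads the same on both strands. Of 32851 promoter windows of all genes, 3.44% held the former and 8.30% the latter. Bases of a match are in capitals, the position of the first base after the start is 1, and all are written 5′ to 3′ along the gene.
Ly6c1, chr15:75048838-75049087, minus strand: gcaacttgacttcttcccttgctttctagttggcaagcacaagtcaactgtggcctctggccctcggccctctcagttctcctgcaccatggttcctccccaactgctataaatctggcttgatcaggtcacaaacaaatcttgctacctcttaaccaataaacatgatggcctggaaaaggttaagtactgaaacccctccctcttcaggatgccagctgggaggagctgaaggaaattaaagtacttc
Ly6c2, chr15:75111972-75112221, minus strand: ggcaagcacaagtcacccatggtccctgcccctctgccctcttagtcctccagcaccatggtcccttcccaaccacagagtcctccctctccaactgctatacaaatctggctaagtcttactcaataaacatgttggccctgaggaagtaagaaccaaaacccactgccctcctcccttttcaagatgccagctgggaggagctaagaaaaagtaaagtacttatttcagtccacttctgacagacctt
Ifitm2, chr7:140955988-140956211, minus strand: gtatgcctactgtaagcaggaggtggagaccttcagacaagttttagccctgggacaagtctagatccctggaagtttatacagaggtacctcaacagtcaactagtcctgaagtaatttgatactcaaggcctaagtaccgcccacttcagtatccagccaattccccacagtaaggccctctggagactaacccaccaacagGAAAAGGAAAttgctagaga
Ifitm3, chr7:141010716-141010742, minus strand, positions 3 to 29: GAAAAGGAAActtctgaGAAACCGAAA
Ifitm6, chr7:141016893-141016912, minus strand, positions -20 to -1: ccatatgaacTTCCTTGAAa
*Ifitm3* held 2 response elements, from positions 3 and 20, and a gamma-activated site from position 14 that overlaps the latter by 3 bases and is not marked. *Ifitm2* held 1 response element from position -46, in a stretch that is shown only to position -27, and *Ifitm6* held 1 gamma-activated site from position -10. For *Ifitm1* and *Ifitm6*, the 250 bases before the RefSeq start lie wholly inside the GENCODE span of the gene. Those windows are thus not upstream of the annotated gene. Neither motif occurred in the windows of *Ifitm1*, *Ly6c1* or *Ly6c2*, which says only that these letters are not there. The *Ly6c1* and *Ly6c2* windows were identical at 164 of 216 aligned bases (75.9%).

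*Ly6a*, the gene of Sca-1, was a FAP gene on both days and also appeared in macrophage-like cells on day 3. Its level in FAP-like cells of day 1 was 1083 CPM (95% interval 1068 to 1097), and in those of day 3 it was 1567 CPM (1551 to 1582). These cells carried 93.6% of all *Ly6a* UMIs on day 1 and 87.5% on day 3. In macrophage-like cells *Ly6a* was at 5.10 CPM (4.33 to 5.98) on day 1, from 153 UMIs, and at 79.7 CPM (77.0 to 82.5) on day 3, from 3254 UMIs. The share of macrophage-like cells with a *Ly6a* UMI was 3.74% (Clopper-Pearson 95% CI 3.02 to 4.58) on day 1 and 27.5% (25.7 to 29.3) on day 3. With each cell thinned to 3000 UMIs, which left out 44 and 36 shallower cells, the shares were 1.23% and 12.6%. The share of the myogenic-like cells of day 3, taken as background, was 24.3% at full depth, with a median of 44172 UMIs against 15405 in macrophage-like cells, and 3.88% (1.69 to 7.51) at 3000 UMIs, and their level was 24.9 CPM (21.7 to 28.3). The full-depth shares of the 2 classes are thus close, while the level and the thinned share were higher in macrophage-like cells.

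The log2 ratio of *Ly6a* CPM, day 3 over day 1, was 3.96 (95% CI 3.73 to 4.21) in macrophage-like cells. The members had been listed with *Ly6a* in day 3 macrophages already in view, so this ratio is a description. Of the 10459 genes with at least 100 UMIs in macrophage-like cells of both days, the median log2 ratio was 0.46, 74.0% were above 0, 27.4% were at 1 or more and 4.94% were at -1 or less. Relative to that median, *Ly6a* was 3.50 higher on day 3. The ratio fell to 1.67 when cells were instead called at 10% of the 99th UMI percentile, and to 2.56 without the *Ifi213*-led cluster. Under that other call, an *Ifi213*-led cluster with 525 cells of day 3 took the monocyte-like name. An *Il1a*-led cluster with 997 cells of day 1 took the neutrophil-like name. The value of 1.67 thus compares other cells than the main ratio does.

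**Figure D1:**
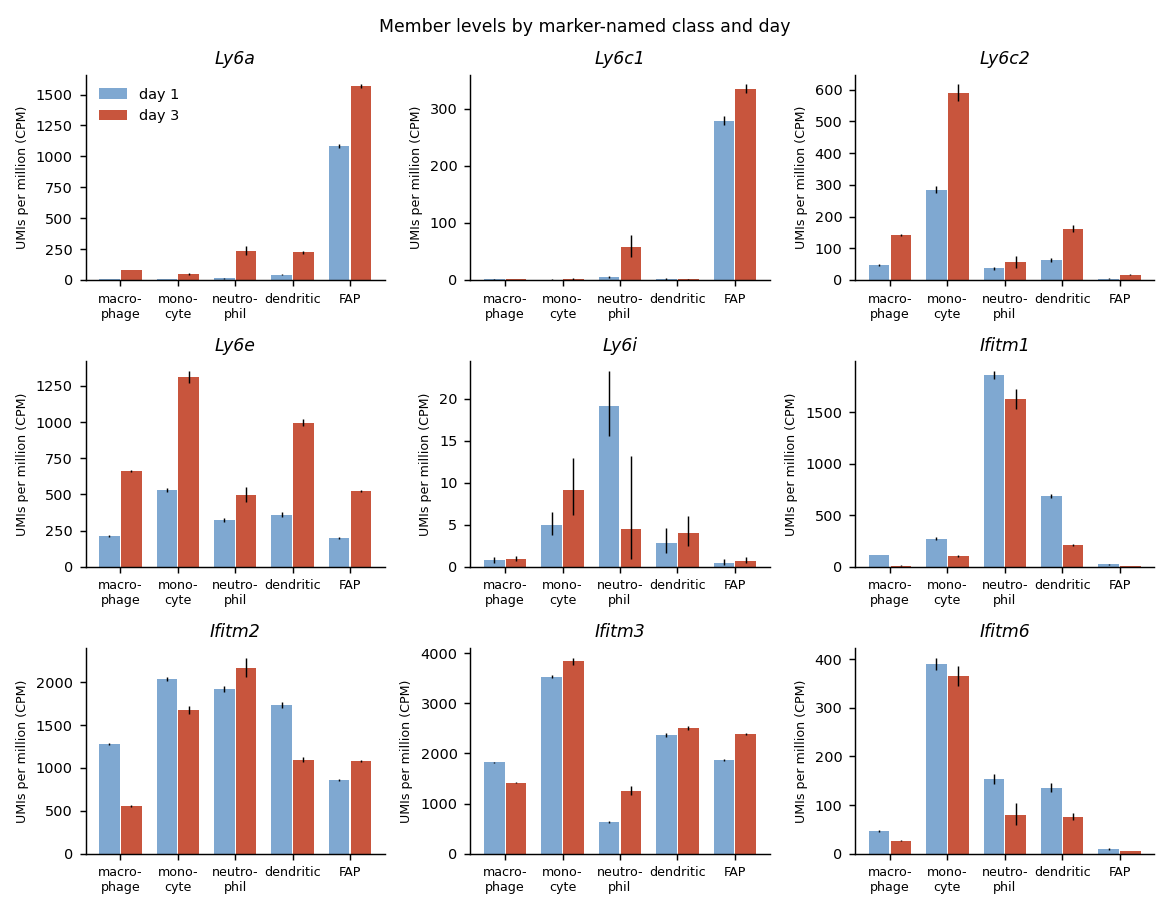
Level of each member in CPM (vertical axis from 0) in the 5 named classes compared, for day 1 (blue) and day 3 (red), 1 library a day, with exact Poisson 95% intervals as lines. *Ly6a* and *Ly6c1* stand highest in FAP-like cells, *Ly6c2* and *Ifitm6* in monocyte-like cells and *Ifitm1* in neutrophil-like cells, and most of the neutrophil-like *Ly6a* of day 3 comes from 12 cells rich in fibroblast UMIs.

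Within day 3, *Ly6a* was unevenly spread over the macrophage-like clusters. The *Ifi213*-led cluster, which is also led by the interferon-induced genes *Rsad2*, *Ifi47* and *Irf7*, was at 166 CPM (159 to 172). The *Rad51ap1*-led cluster, led by genes of DNA replication and mitosis, was at 42.2 CPM (38.5 to 46.2). The *Gpnmb*-led cluster, led by lysosomal and lipid-handling genes such as *Gpnmb* and *Fabp5*, was at 19.9 CPM (17.7 to 22.4). None of the 3 intervals overlapped, and each lay above those of the *Ppbp*-led (6.19 CPM) and *Serpinb2*-led (3.88 CPM) clusters of day 1. The *Gpnmb*-led level was not above that of myogenic-like cells (24.9 CPM), so no expression is read from that level by itself. At 3000 UMIs a cell, 19.5% of *Ifi213*-led, 8.10% of *Rad51ap1*-led and 4.42% of *Gpnmb*-led cells had a *Ly6a* UMI. At a finer clustering (resolution 1.2 in place of 0.8), 379 cells of day 3 split off as an *Ifi213*-led cluster that took the monocyte-like name. *Ly6a* in it was at 443 CPM, *Ly6c2* at 818 CPM, *Ly6e* at 1998 CPM and *Ifitm3* at 4665 CPM, and the *Fcrls*-led cluster of 798 macrophage-like cells was at 66.1 CPM of *Ly6a*.

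RNA of FAPs in other droplets was measured beside this result, since FAPs are rich in *Ly6a*. The summed UMIs of *Pdgfra*, *Col1a1*, *Col1a2*, *Col3a1* and *Dcn*, which mark fibroblasts, gave the scale. Macrophage-like cells of day 1 had 19.7 *Ly6a* UMIs for every 100 UMIs of these genes, FAP-like cells 18.0, and barcodes of at most 100 UMIs 25.9. On day 3, macrophage-like cells had 87.1, against 7.38 in FAP-like cells and 8.87 in barcodes of at most 100 UMIs. By cluster the day 3 values were 210 in *Ifi213*-led, 33.5 in *Rad51ap1*-led and 25.4 in *Gpnmb*-led cells. *Ly6a* in macrophage-like cells thus stood to fibroblast RNA on day 1 as it did in FAP-like cells, and on day 3 it stood above it in each of the 3 clusters. Myogenic-like cells of day 3 had 5.22. RNA of barcodes of at most 100 UMIs was put at 8.90% of their UMIs, against 1.70% in macrophage-like cells, so the background differs between these classes. In the 1046 macrophage-like cells of day 3 with no UMI of the 5 genes, *Ly6a* was at 78.5 CPM (74.1 to 83.1), and 25.5% (22.9 to 28.3) of them had a *Ly6a* UMI. In the 2170 such cells of day 1 it was at 3.98 CPM. The 1046 cells had a median of 12964 UMIs, against 17366 in day 3 macrophage-like cells with a UMI of the 5 genes. Such a UMI was found in 53.7% of *Ifi213*-led cells with *Ly6a* and 49.1% of those without. In *Gpnmb*-led cells these shares were 68.2% and 58.3%, and in *Rad51ap1*-led cells 69.7% and 65.3%. The 1046 cells thus differ in their mix of clusters, and no level by cluster was taken in them. Subtracting the profile of the near-empty barcodes at the share set by *Col1a1*, *Col1a2*, *Col3a1* and *Dcn* took away 10.2% of the *Ly6a* level on day 3, and the estimate for day 1 (6.78 CPM) was 133% of the level measured.

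**Figure D2:**
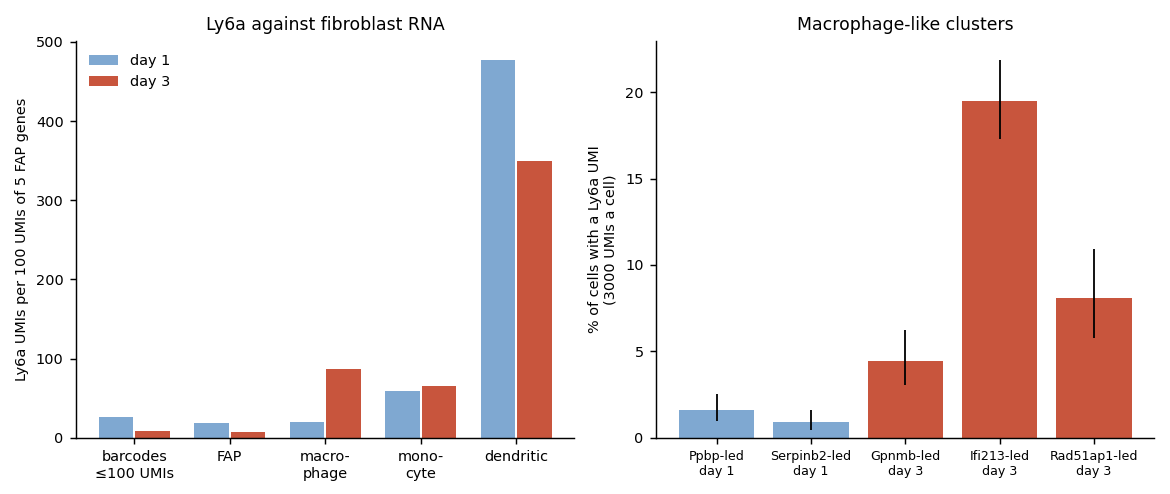
Left, *Ly6a* UMIs per 100 summed UMIs of 5 fibroblast genes, in barcodes of at most 100 UMIs and in 4 classes, day 1 (blue) and day 3 (red), without intervals. Right, percent of cells with a *Ly6a* UMI at 3000 UMIs a cell in the macrophage-like clusters of at least 50 cells, with Clopper-Pearson 95% intervals. Macrophage-like cells match FAP-like cells on day 1 (19.7 and 18.0) and not on day 3 (87.1 and 7.38), and the *Ifi213*-led cluster is highest at 19.5%.

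Of the 660 macrophage-like cells of day 3 with a *Ly6a* UMI, 323 had 1 UMI, 249 had 3 or more, and the highest had 70. On day 1, 73 of 90 had 1 UMI. To compare cells with and without *Ly6a* at 1 depth, each day 3 cell was thinned to 3000 UMIs, which left 299 cells with and 2066 without a *Ly6a* UMI. Other members were higher in the cells with *Ly6a*. *Ly6c2* was at 951 CPM with and 126 CPM without (log2 ratio 2.91, 95% CI 2.77 to 3.05), *Ly6e* at 2029 and 675 CPM (1.59, 1.51 to 1.67), and *Ifitm3* at 4273 and 1463 CPM (1.55, 1.49 to 1.60). The 6 other members with at least 100 UMIs were all higher, and 5 of them had a log2 ratio of at least 1, where 50.9% of the 6379 genes with as many UMIs were above 0 and 2.70% at 1 or more.

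Genes that type I interferon induces differed in the same direction between these cells. Of the 16 listed, 15 were in the matrices, 14 had 100 UMIs, all 14 were higher in cells with *Ly6a*, and 13 had a log2 ratio of at least 1, with a median of 1.81. *Bst2*, which tethers budding virions, was at 793 CPM with and 466 CPM without *Ly6a*, and *Isg15*, a ubiquitin-like modifier, at 776 and 162 CPM. *Irf7*, a transcription factor of the interferon genes, was at 640 and 125 CPM, and *Rsad2*, which encodes the antiviral enzyme viperin, at 341 and 104 CPM. Of the interferon-gamma list, 5 of 10 genes had 100 UMIs and all 5 were higher, with a median of 1.76. The 3 genes of Ly6C-high monocytes were higher too, with *Plac8* at 1283 and 234 CPM, *Ms4a4c* at 896 and 182 CPM and the chemokine receptor *Ccr2* at 551 and 250 CPM. Of the 10 macrophage markers, only *Adgre1*, which encodes the macrophage antigen F4/80, and *Csf1r* were compared. *Adgre1* was at 404 and 413 CPM and *Csf1r* at 368 and 382 CPM. Within *Ifi213*-led cells, *Adgre1* was at 401 and 424 CPM, *Csf1r* at 386 and 466 CPM and *Plac8* at 1600 and 467 CPM.

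The type I list also differed within each cluster. In *Ifi213*-led cells its summed level was 4625 CPM in the 230 cells with *Ly6a* and 1710 CPM in the 949 without, in *Rad51ap1*-led cells 2325 CPM in 38 and 953 CPM in 431 cells, and in *Gpnmb*-led cells 2387 CPM in 31 and 1105 CPM in 670 cells. Fibroblast RNA moved with *Ly6a* in the latter 2 clusters and not in the former. The 5 fibroblast genes summed to 66.7 CPM with and 72.4 CPM without *Ly6a* in *Ifi213*-led cells, to 211 and 82.8 CPM in *Rad51ap1*-led cells and to 409 and 46.3 CPM in *Gpnmb*-led cells. Its part in the differences seen in those 2 clusters was not tested. In *Ifi213*-led cells, *Ly6c2* was at 1129 CPM with and 222 CPM without *Ly6a*, *Ly6e* at 2232 and 970 CPM and *Ifitm3* at 4912 and 2172 CPM. *Ly6c2* was found in the same cells as *Ly6a* more often than in others, in 371 of 660 cells with *Ly6a* (56.2%) and 487 of 1741 without (28.0%), at full depth.

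**Figure D3:**
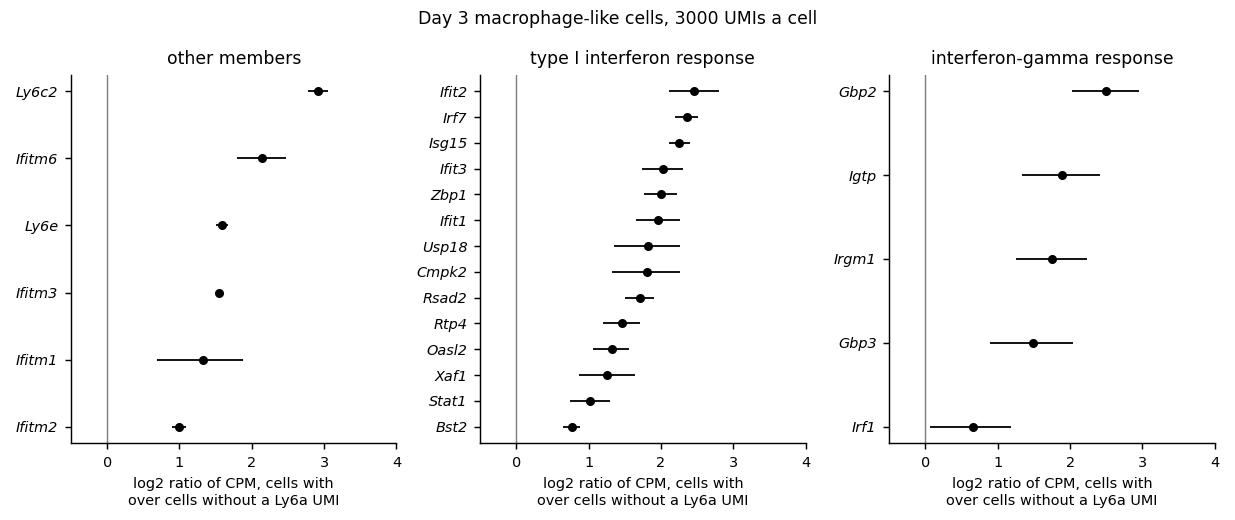
Log2 ratio of CPM between day 3 macrophage-like cells with and without a *Ly6a* UMI, each cell thinned to 3000 UMIs, for genes with at least 100 UMIs, with exact binomial 95% intervals for counting error as lines. All genes shown lie above 0, from 0.65 for *Irf1* to 2.91 for *Ly6c2*.

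Dendritic cell-like cells had *Ly6a* at 41.4 CPM (36.2 to 47.0) on day 1 and 225 CPM (213 to 238) on day 3, a log2 ratio of 2.44 (2.24 to 2.65). Their *Ly6a* UMIs per 100 of the fibroblast genes were 478 and 350, far above those of FAP-like cells on both days. Monocyte-like cells had *Ly6a* at 7.402 CPM (5.84 to 9.25) and 44.5 CPM (37.6 to 52.3). The neutrophil-like level of day 3, 235 CPM, was of another kind. It rested on 157 UMIs, of which 145 lay in 12 cells with 10 or more UMIs of the fibroblast genes, and only 5 of the 12 had a UMI of the neutrophil gene *S100a8*. Without these cells it was at 26.8 CPM, against 13.8 CPM on day 1. Over all cells with at least 50 in a class, the order on day 3 after FAP-like cells and the *Cldn5*-led cluster was neutrophil-like, dendritic cell-like, macrophage-like and monocyte-like, and the intervals of the neutrophil-like and dendritic cell-like levels overlapped.

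The *Cldn5*-led cluster took the endothelial name by its markers, but the name covered only part of it. Of its 89 cells on day 1, 70 had UMIs of at least 2 of *Pecam1*, *Cdh5*, *Cldn5* and *Egfl7*. Of its 68 cells on day 3, only 18 did, and 48 had none, of which 37 had a UMI of the leukocyte gene *Ptprc*. The T and NK cell marker list summed to 84.0 CPM in it on day 1 and 1790 CPM on day 3. It is therefore described by these cells and not compared between days. In the 70 cells of day 1, *Ly6a* was at 1063 CPM and *Ly6c1* at 401 CPM. In the 18 cells of day 3, *Ly6a* was at 2103 CPM and *Ly6c1* at 1698 CPM. In the 37 *Ptprc*-positive cells, *Ly6c2* was at 724 CPM, *Ly6e* at 771 CPM and *Ifitm3* at 31.2 CPM, and *Ly6c1* was at 15.6 CPM.

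*Ly6c1* and *Ly6c2*, whose coding sequences differ at 9 of 393 bases, were found in different cells. *Ly6c1* was in FAP-like cells at 279 CPM (272 to 287) on day 1 and 336 CPM (328 to 343) on day 3, and these carried 93.3% and 94.9% of its UMIs. In macrophage-like cells it was at 0.967 CPM and 1.45 CPM, from 29 and 59 UMIs. *Ly6c2* was highest in monocyte-like cells, at 285 CPM (275 to 296) on day 1 and 590 CPM (564 to 617) on day 3. It was at 4.44 and 17.1 CPM in FAP-like cells, below the 54.1 and 49.6 CPM of barcodes of at most 100 UMIs. Across 16 groups of class or macrophage-like cluster and day, Pearson's r of log2(CPM + 1) was -0.37 between *Ly6c1* and *Ly6c2* and 0.84 between *Ly6a* and *Ly6c1*. The groups share 2 libraries and differ in depth, so r describes them and nothing more.

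In macrophage-like cells *Ly6c2* was at 47.0 CPM (44.6 to 49.6) on day 1 and 141 CPM (137 to 144) on day 3, a log2 ratio of 1.58 (1.498 to 1.67). This ratio varied widely with the processing. Over 14 alternatives it ran from 0.010, after log-normalization, to 2.33, with each cell at 3000 UMIs, and it was 0.45 at resolution 1.2, where the finer *Ifi213*-led cluster took the monocyte-like name. On day 3, *Ly6c2* was at 307 CPM in *Ifi213*-led cells, 44.9 CPM in *Gpnmb*-led cells and 42.02 CPM in *Rad51ap1*-led cells, and on day 1 at 48.2 CPM in *Serpinb2*-led and 44.7 CPM in *Ppbp*-led cells. The 4 clusters other than the *Ifi213*-led one thus lay between 42.02 and 48.2 CPM. In monocyte-like cells the log2 ratio was 1.05 (0.97 to 1.13), though it turned to -0.15 with 20 principal components and -0.11 at resolution 0.4, and in dendritic cell-like cells, at 61.4 and 162 CPM, it was 1.40 (1.22 to 1.58).

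*Ly6e*, a family member of many tissues that hinders some viruses, was found in all classes and was higher on day 3 in each of the 5 compared. In macrophage-like cells it was at 211 CPM (206 to 216) on day 1 and 664 CPM (656 to 672) on day 3, a log2 ratio of 1.65 (1.61 to 1.69). In monocyte-like cells, where it was highest on both days, it was at 533 and 1312 CPM (log2 ratio 1.30, 1.24 to 1.36). Dendritic cell-like cells were at 361 and 996 CPM (1.47), FAP-like cells at 197 and 524 CPM (1.41) and neutrophil-like cells at 323 and 498 CPM (0.62). The ratio was above 0 in every alternative run, from 1.12 to 1.99 in macrophage-like cells and from 0.035 to 0.84 in neutrophil-like cells. The 0.035 came with RNA of near-empty barcodes subtracted, put at 34.4% of the neutrophil-like level on day 3 and 1.41% on day 1. Fibroblast genes set that share, and 12 cells of day 3 held 1302 of the 1388 UMIs of the 5 fibroblast genes. In neutrophil-like cells with no such UMI the ratio was 0.63 (0.39 to 0.87). The part of this RNA in the neutrophil-like rise was not tested. Myogenic-like cells of day 3 had 182 CPM. By cluster, *Ly6e* on day 3 ran from 308 CPM in *Gpnmb*-led through 564 CPM in *Rad51ap1*-led to 1081 CPM in *Ifi213*-led cells, the order seen for *Ly6a* as well.

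*Ly6i*, a close relative of *Ly6a*, was at or below 19.1 CPM in every class. It was highest in neutrophil-like cells of day 1, at 19.1 CPM (15.5 to 23.3) from 98 UMIs, and on day 3 these had 3 UMIs, or 4.50 CPM (0.927 to 13.1). Monocyte-like cells had 4.999 and 9.09 CPM, from 52 and 30 UMIs (log2 ratio 0.87, 0.16 to 1.54), and in macrophage-like cells, at 0.767 and 0.980 CPM, no difference was detectable at this depth (log2 ratio 0.34, -0.42 to 1.16). No *Ly6i* UMI was found in the 206 myogenic-like cells of day 3, which allows up to 0.402 CPM (upper end of the exact Poisson interval).

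**Figure D4:**
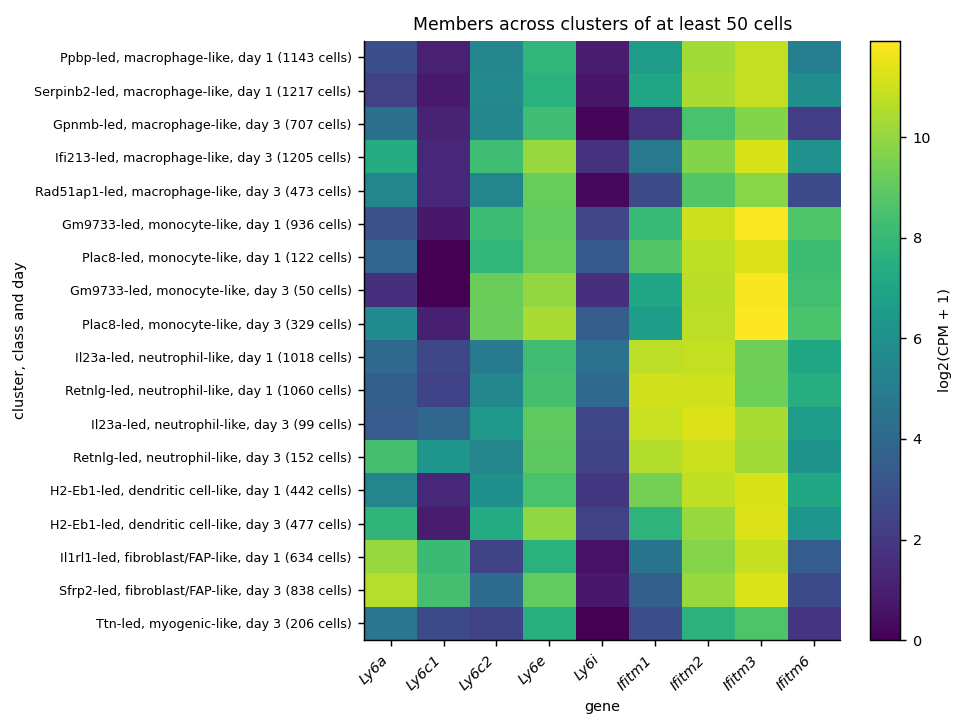
Level of each member as log2(CPM + 1), shown by colour from 0 (dark) to about 12 (yellow), in every cluster with at least 50 cells on a day, the *Cldn5*-led one left out. Rows are clusters with their class, day and number of cells, and columns are genes. *Ly6a* and *Ly6c1* are bright in the 2 FAP-like rows, *Ifitm1* in the neutrophil-like rows, and *Ly6c2*, *Ly6e* and *Ifitm3* are brighter in the *Ifi213*-led row than in the other macrophage-like rows of day 3.

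In macrophage-like cells the 4 Ifitm genes were lower on day 3, and *Ifitm1* and *Ifitm2* were so in every alternative. *Ifitm1* was at 114 CPM (110 to 118) on day 1 and 12.4 CPM (11.4 to 13.5) on day 3, a log2 ratio of -3.20 (-3.34 to -3.06). *Ifitm2* was at 1283 CPM (1270 to 1296) and 557 CPM (550 to 565), a ratio of -1.20 (-1.23 to -1.18). Of the 7 members with at least 100 UMIs in these cells, 3 were above 0, against 74.0% of all genes, the same 3 (*Ly6a*, *Ly6c2* and *Ly6e*) were at 1 or more, against 27.4%, and 2 were at -1 or less, against 4.94%. With all 9 members counted, 5 were above 0, against 72.6% of the genes with a UMI. Over the 14 alternatives, *Ifitm1* and *Ifitm2* ranged from -3.82 to -2.70 and from -1.66 to -0.92. *Ifitm3*, the member best known for blocking virus entry, was at 1819 and 1416 CPM, a ratio of -0.36 (-0.38 to -0.34), and *Ifitm6* at 46.6 and 26.6 CPM, a ratio of -0.81 (-0.92 to -0.69). Neither direction held when every cell weighed the same. At 3000 UMIs a cell the ratios were 0.015 for *Ifitm3* and 0.048 for *Ifitm6*, and by the mean of each cell's CPM they were 0.032 for both. The cells of day 3 that were deepest were also lowest in *Ifitm3*, since *Gpnmb*-led and *Rad51ap1*-led cells had medians of 19674 and 22645 UMIs and 827 and 879 CPM, and *Ifi213*-led cells a median of 11420 UMIs and 2369 CPM.

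The lower levels of *Ifitm1* and *Ifitm2* were found in each macrophage-like cluster of day 3. *Ifitm1* was at 133 and 91.1 CPM in the *Serpinb2*-led and *Ppbp*-led clusters of day 1, and at 26.9, 5.88 and 2.38 CPM in the *Ifi213*-led, *Rad51ap1*-led and *Gpnmb*-led clusters of day 3. *Ifitm2* was at 1340 and 1226 CPM and then at 840, 425 and 362 CPM. For both genes, every day 3 cluster lay below every day 1 cluster. *Ifitm3* did not divide by day, with 1814 and 1829 CPM in the day 1 clusters, between the *Ifi213*-led cluster and the other 2 of day 3.

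In other classes *Ifitm1* was highest in neutrophil-like cells, at 1863 CPM (1826 to 1901) on day 1 and 1628 CPM (1533 to 1728) on day 3, and these carried 47.2% of its UMIs on day 1. The ratio there, -0.19 (-0.29 to -0.10), turned to 0.36 without the 12 cells rich in fibroblast UMIs, and the sign changed in 8 of 13 alternatives, so no direction is given. In monocyte-like cells *Ifitm1* was at 275 and 102 CPM (-1.42), in dendritic cell-like cells at 688 and 212 CPM (-1.70), and in FAP-like cells at 24.4 and 11.2 CPM (-1.12). The FAP-like levels lay below those of barcodes of at most 100 UMIs (350 and 67.3 CPM). *Ifitm2* was at 2039 and 1679 CPM in monocyte-like cells (-0.28), 1735 and 1097 CPM in dendritic cell-like cells (-0.66) and 856 and 1081 CPM in FAP-like cells (0.34). *Ifitm3* was highest in monocyte-like cells, at 3532 and 3833 CPM. Its log2 ratio there, 0.12, was below the median of all genes in that class (0.20), and so was that of dendritic cell-like cells (0.090 against 0.21). *Ifitm6*, a gene of myeloid cells, was highest in monocyte-like cells, at 390 CPM (378 to 402) and 365 CPM (345 to 387).

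**Figure D5:**
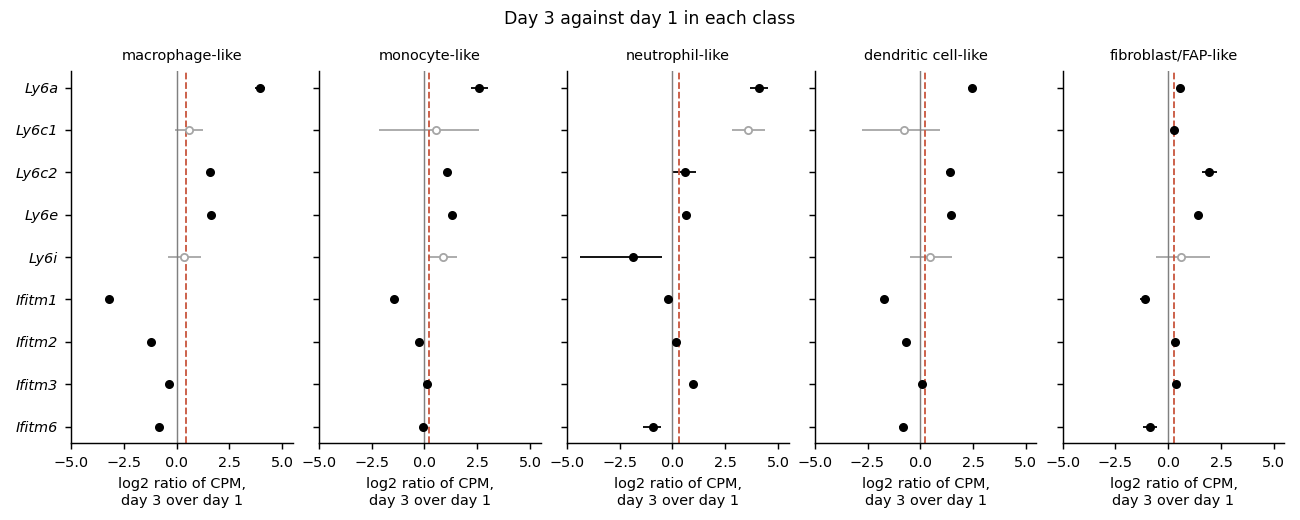
Log2 ratio of CPM, day 3 over day 1, for each member in the 5 classes, with exact binomial 95% intervals for counting error as lines; open grey points had fewer than 100 UMIs over both days. The solid line marks 0 and the dashed red line the median of all tested genes of that class (0.46 in macrophage-like cells). In macrophage-like cells *Ly6a*, *Ly6c2* and *Ly6e* lie right of both lines and the 4 Ifitm genes left of both.

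In the other classes the count of members can be read against all genes in the same way. In monocyte-like cells 4 of 7 members were above 0, against 66.0% of genes, and 3 had a log2 ratio of at least 1 (*Ly6a*, *Ly6c2* and *Ly6e*), against 8.73%. In dendritic cell-like cells 4 of 7 were above 0, against 65.8%, and the same 3 were at 1 or more, against 11.9%. In FAP-like cells 6 of 8 were above 0, against 62.5%, and 2 were at 1 or more (*Ly6c2* and *Ly6e*), against 21.3%. *Ifitm1* was the only member at -1 or less in these 3 classes, against 2.70%, 3.54% and 7.20% of genes. In FAP-like cells *Ifitm1* and *Ly6c2* lay below their levels in barcodes of at most 100 UMIs on both days. Those levels were 350 and 67.3 CPM for *Ifitm1* and 54.1 and 49.6 CPM for *Ly6c2*. The part of such RNA in the FAP-like ratios of both genes was not tested. In neutrophil-like cells 5 of 8 were above 0, against 61.9%, *Ly6a* alone was at 1 or more, against 25.3%, and rested on the cells described above, and *Ly6i* alone was at -1 or less, against 8.95%.

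Other genes of these families and of the interferon response were counted from lists set by symbol. Of the 14 other Ly6 and uPAR relatives, 2 had 100 UMIs in macrophage-like cells. *Plaur*, which encodes the urokinase receptor, was at 335 and 79.3 CPM (log2 ratio -2.08), and *Cd59a*, which encodes an inhibitor of complement, at 0.8003 and 6.64 CPM (3.03). None of *Ifitm5*, *Ifitm7* and *Ifitm10* reached 100 UMIs. All 15 type I interferon genes were higher on day 3 in macrophage-like cells, against 74.0% of all genes, and 14 of them had a log2 ratio of at least 1, against 27.4%. Their median was 2.03, against 0.46 over all genes. *Bst2* was at 127 and 487 CPM, *Isg15* at 106 and 181 CPM, *Irf7* at 38.8 and 133 CPM and *Rsad2* at 15.9 and 115 CPM. In FAP-like cells all 15 had a log2 ratio of at least 1 (median 2.21), against 21.3% of all genes, in dendritic cell-like cells 14 of 14 (median 2.06), against 11.9%, and in monocyte-like cells 8 of 11 (median 1.78), against 8.73%. In neutrophil-like cells 4 of 8 did (median 0.93), against 25.3%.

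Of the 7 interferon-gamma genes with 100 UMIs in macrophage-like cells, 6 were above 0, against 74.0% of all genes, and 5 were at 1 or more, against 27.4%. The exception was *Irf1*, a transcription factor, at 54.4 and 22.2 CPM, while *Irgm1*, a GTPase that acts on vacuoles of intracellular microbes, was at 4.33 and 20.02 CPM. Of the 4 interferon receptor genes, those of the type I receptor were lower on day 3. *Ifnar2* was at 228 and 164 CPM (-0.47, -0.52 to -0.42), *Ifnar1* at 100 and 73.4 CPM (-0.45, -0.52 to -0.38), *Ifngr1* at 123 and 120 CPM (-0.035) and *Ifngr2* at 95.03 and 109 CPM (0.20). The type I list was thus higher on day 3 in the class in which *Ifitm1* and *Ifitm2* were lower.

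Genes whose pattern over the 16 groups was most like that of each member were sought among 10388 genes with at least 500 UMIs. For *Ly6a* these included *Shfl* and *Fxyd1* (r of 0.91 and 0.90). For *Ly6c1* they were *Srgap1*, *Col4a1* and *Igfbp7* (0.99 each), and for *Ly6c2* *Fcho2*, *Tle4* and *Arhgap17* (0.90, 0.90 and 0.89). For *Ly6e* they were *Usp25*, *Gm43329* and *Ifi47* (0.92 each), and for *Ly6i* they included *Nsd3* and *Itgal* (0.93 and 0.92). *Ifitm1* was most like *Mapk13*, *Kdm6b* and *Arih2*, *Ifitm2* like *Smim3*, *S100a11* and *Birc3*, *Ifitm3* like *Arf5*, *Insig1* and *Plac8*, and *Ifitm6* like *Klra2*, *Mcemp1* and *Ugt1a7c*. Between members, r was 0.81 for *Ly6c2* with *Ly6e*, 0.86 for *Ifitm1* with *Ifitm2* and 0.84 for *Ifitm2* with *Ifitm6*.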

How the data were processed

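Single-cell RNA was measured in 2 libraries, from day 1 and day 3 quadriceps, each a pool of 5 mice. The deposited values are raw UMI counts per gene and barcode. Per the submitters' processing notes the authors made them with Cell Ranger 5.0.0 on mm10, while the header of the matrices names another release. No cell calls were given, so cells were taken as the 7367 and 6640 barcodes with most UMIs. Of these, 517 and 2013 were over the mitochondrial limit, and the libraries held 74852240 and 102565783 UMIs.

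Clustering used Seurat 5.3.0 and sctransform 0.4.2 in R 4.3.3, with 3000 variable features less the members, markers and listed genes, mitochondrial share and cell cycle difference regressed out, 10 principal components and resolution 0.8. Each cluster took the name of the marker list with the highest mean log CPM relative to all clusters, if at least 3 of its markers were raised. It took no name if another list had more genes among its 10 lead genes, or if it had few UMIs and no marker among them. No marker of the list was among the lead genes of the *Ifi213*-led, *Serpinb2*-led, *Rad51ap1*-led, *Gpnmb*-led and *Il1rl1*-led clusters. Scrublet, run through scanpy 1.11.5, marked 1 cell of day 1 and 0 of day 3, so it did not work and doublets were kept. UMIs were summed per class and day. Ratios had 0.5 added to each count and exact binomial 95% intervals (SciPy 1.17.1, Python 3.11.15). With 1 library a day no test was made, and intervals cover counting error only. On Poisson counts simulated for 10459 genes from the macrophage-like totals, 200 of them changed, 95.5% of intervals held the simulated ratio. These counts held no variation among mice or cells, so this checks the calculation only. Genes with fewer than 100 UMIs over both days in a class were left out of counts. Genes were named as members, as the lead genes of clusters, as the interferon genes with most UMIs and as the 3 genes most like each member. Some genes so named are not reported here. The members and lists were chosen with earlier results of these data known. Gene positions and transcripts came from GENCODE for GRCm38.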

Additional observations from a re-analysis of the deposited data

Results flagged for a closer look

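In 6 cases a member's log2 ratio of CPM, day 3 over day 1, had the opposite sign in macrophage-like cells and in another class, and with 1 library a day the difference between classes was not tested. *Ifitm3* was at -0.36 in macrophage-like cells, against 0.12 in monocyte-like, 0.98 in neutrophil-like, 0.090 in dendritic cell-like and 0.36 in FAP-like cells. *Ifitm2* was at -1.20 in macrophage-like cells, against 0.17 in neutrophil-like and 0.34 in FAP-like cells. Several of these signs depended on the processing. *Ifitm3* changed sign in 2 of 14 alternatives in macrophage-like cells, 6 of 14 in monocyte-like, 3 of 14 in dendritic cell-like and 1 of 11 in FAP-like cells, and in 0 of 13 in neutrophil-like cells. The size of the neutrophil-like *Ifitm3* ratio varied all the same. It was 0.30 with RNA of near-empty barcodes subtracted, close to the median of all tested genes in that class (0.30). That RNA was put at 42.1% of the level on day 3 and 7.08% on day 1. In cells with no UMI of the 5 FAP genes the ratio was 1.21. *Ifitm2* changed sign in 0 of 14 in macrophage-like cells, 1 of 13 in neutrophil-like and 1 of 11 in FAP-like cells.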

How the results depend on the processing

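*Ly6a* in macrophage-like cells was higher on day 3 in every alternative that gave a ratio, but the class did not hold the same cells in each. A large day 1 cluster led by *Ccl24*, *Il1a* or *Serpinb2* took no name in several. It held 1734 cells at resolution 0.4, 1656 with 20 principal components and 1637 at a mitochondrial limit of 15%. It held 1279 without the highest Scrublet scores and 1092 with separate clustering. At resolution 0.4, a *Gm9733*-led cluster with 1549 cells of day 1 was macrophage-like. The main log2 ratio of 3.96 became 3.17 with log-normalization, 3.48 at resolution 0.4, 3.06 at resolution 1.2, 3.69 with a mitochondrial limit of 15%, 1.67 with cells called at 10% of the 99th UMI percentile, 3.49 without the highest Scrublet scores, 2.67 with each library clustered on its own, 3.20 with cells named by their highest marker score, 4.29 in cells with no UMI of the 5 FAP genes, 4.59 at 3000 UMIs a cell and 4.73 as a mean over cells. Of the alternatives chosen after seeing the data, macrophage- and monocyte-like cells together at resolution 1.2 gave 3.69, leaving out the *Ifi213*-led cluster 2.56, and the ratio relative to the median of all tested genes 3.50. Subtracting ambient RNA gave no ratio, since it removed all of day 1. The day 3 share of 27.5% became 24.5% with log-normalization and also with separate clustering, 23.1% at resolution 1.2, 22.4% with the other call of barcodes, 24.8% by marker score, 25.5% with no FAP UMI, 12.6% at 3000 UMIs and 21.1% without the *Ifi213*-led cluster. The count of 3 members higher on day 3 was 5 at 3000 UMIs, as a mean over cells and with all genes with a UMI, and 2 without the *Ifi213*-led cluster.

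Of 472 other values for members by class, 438 had the sign of the main value and 34 did not, and the cause was not tested. Of the 438, 258 were counted as moved from the main value and only 180 as the same. A kept sign is therefore not a kept size. *Ifitm3* in monocyte-like cells turned to -0.27 with 20 principal components, -0.22 with the other call of barcodes, -0.16 with log-normalization, -0.0035 at a mitochondrial limit of 15%, -0.34 at resolution 0.4 and -0.082 relative to the median. In dendritic cell-like cells it turned to -0.27 by marker score, -0.24 with log-normalization and -0.12 relative to the median, and in macrophage-like cells to 0.015 at 3000 UMIs and 0.032 as a mean over cells. *Ifitm6* turned to 0.048 and 0.032 in macrophage-like and to 0.043 and 0.036 in monocyte-like cells under the same pair of alternatives. *Ifitm1* in neutrophil-like cells turned to 0.42 with no FAP UMI, 0.73 by marker score, 1.02 with separate clustering, 0.33 without the highest Scrublet scores, 0.37 with log-normalization, 0.42 as a mean over cells, 0.26 at a limit of 15% and 0.36 without the 12 cells rich in FAP UMIs. With separate clustering *Ly6a* in neutrophil-like cells turned to -0.71, and relative to the median *Ifitm2* there turned to -0.13. *Ly6c2* in monocyte-like cells turned to -0.15 with 20 principal components and -0.11 at resolution 0.4. The other call of barcodes left 55 FAP-like cells on day 1. Of these, 52 were of a *Krtdap*-led cluster, while the *Il1rl1*-led cluster, with 623 cells of day 1, took no name. The FAP-like ratios under this call thus compare other cells than the main ratios do. In them *Ly6a* was at -1.61, *Ly6c1* at -2.27, *Ifitm1* at 2.59, *Ifitm2* at -0.41, *Ifitm3* at -0.55 and *Ifitm6* at 0.10. *Ifitm6* in FAP-like cells was at 0.22 without the highest Scrublet scores.

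No paired analysis was possible because each day has 1 library. Pools of mice, the barcode lists and the day cannot be told apart, and at this depth members under 100 UMIs in a class have wide intervals and were left out of the counts.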
